A study of Homo sapiens with 12 samples.

Results

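Tetherin, the IFITM proteins and other antiviral effectors of the interferon response were followed at the RNA level in HT1080 cells, an established human fibrosarcoma line, as 10 of the 36502 genes in the count table. The genes are BST2, IFITM1, IFITM3, MX1, RSAD2, ISG15, IFI6, IFI44, IFI44L and XAF1. BST2 and IFI44 were picked from the table because they were higher in the VP16 clone than in the GFP clone, so their difference between the clones is given as a description with no test. The other 8 were added as effectors of the same response.

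The cells came from 2 clones. The GFP clone carried the m6A-Tracer, a fluorescent protein fusion that binds DNA methylated on adenine by the bacterial enzyme Dam. The VP16 clone carried m6A-Tracer-VP16, which adds the activation domain of a herpes simplex virus protein. Both were HT1080 cells kept in serum with antibiotics, and in both Dam-LaminB1, the methyltransferase joined to a protein of the nuclear lamina, could be stabilised with the ligand Shield1. Uninduced cells spent 4 days in 50 ng/ml doxycycline. Tracer cells spent 3 days in doxycycline and the last 24 hours without it, which turned on the tracer. Tracer with Dam-LaminB1 cells were treated in the same way, with 500 nM Shield1 during the 24 hours without doxycycline. Each of the 6 groups had 2 libraries. Since each tracer was represented by 1 clone, the VP16 domain and the history of the clone cannot be told apart, and neither can the tracer and the removal of doxycycline, nor Dam-LaminB1 and Shield1.

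Cells that sense viral nucleic acid secrete type I interferon, which binds the receptor chains IFNAR1 and IFNAR2. The kinases JAK1 and TYK2 then phosphorylate STAT2, which acts with IRF9 in the complex ISGF3, and this complex binds an element built of GAAA repeats in the promoters of interferon-stimulated genes. Many of these genes keep a low level without added interferon. Their products act at different steps: BST2 (tetherin) holds budding enveloped virions at the cell surface, IFITM1 and IFITM3 hinder fusion of viral and cellular membranes, MX1 is a GTPase that blocks incoming viral particles, RSAD2 (viperin) makes a nucleotide analogue that stops viral polymerases, and ISG15 is a ubiquitin-like protein conjugated to other proteins. IFI6 is a small membrane protein that limits the replication of flaviviruses, XAF1 binds and counters the apoptosis inhibitor XIAP, and IFI44 and IFI44L are related proteins encoded side by side on chromosome 1.

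Most of these genes hold letters in their promoters that resemble the GAAA repeats of the element bound by ISGF3. RefSeq windows of 300 bases (GRCh38.p14, 250 before and 50 after each annotated start) were searched on both strands for GAAA followed, after 2 bases of any kind, by a further GAAA; matches may overlap. Of the 10 genes, all matched by symbol, 9 held a match in at least 1 window and 6 held 2 or more in the same window. The exception was XAF1, whose windows did not hold these letters. Over all 27305 gene symbols 4.38% held a match in at least 1 window and 0.311% held 2 or more in the same window. Among 44 other interferon-stimulated genes that could be matched 27 did. The stretches below are the 250 bases before the start of 5 genes, 5′ to 3′ on the strand of the gene, with matches in capitals. They are shown because matches in BST2 and ISG15 overlap, IFI6 carries 3, and the neighbouring IFITM genes carry theirs close to the start.
BST2, chr19:17405631-17405880 (- strand): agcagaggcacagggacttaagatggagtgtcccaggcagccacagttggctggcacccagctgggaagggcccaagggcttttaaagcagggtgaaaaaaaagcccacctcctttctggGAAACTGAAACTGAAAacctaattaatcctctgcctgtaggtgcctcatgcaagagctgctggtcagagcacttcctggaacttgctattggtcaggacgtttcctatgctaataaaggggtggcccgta
ISG15, chr1:1013247-1013496 (+ strand): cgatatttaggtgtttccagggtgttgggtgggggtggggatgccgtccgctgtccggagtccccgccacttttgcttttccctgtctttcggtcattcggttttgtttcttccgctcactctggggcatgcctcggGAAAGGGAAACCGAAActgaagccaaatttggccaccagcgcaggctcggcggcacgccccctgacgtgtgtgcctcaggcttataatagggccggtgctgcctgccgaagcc
IFI6, chr1:27672193-27672442 (- strand): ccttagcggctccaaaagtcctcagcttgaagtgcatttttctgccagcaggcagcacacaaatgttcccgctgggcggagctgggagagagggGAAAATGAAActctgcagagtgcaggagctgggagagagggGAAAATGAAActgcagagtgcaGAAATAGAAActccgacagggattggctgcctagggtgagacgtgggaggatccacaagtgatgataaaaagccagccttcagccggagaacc
IFITM1, chr11:313790-314039 (+ strand): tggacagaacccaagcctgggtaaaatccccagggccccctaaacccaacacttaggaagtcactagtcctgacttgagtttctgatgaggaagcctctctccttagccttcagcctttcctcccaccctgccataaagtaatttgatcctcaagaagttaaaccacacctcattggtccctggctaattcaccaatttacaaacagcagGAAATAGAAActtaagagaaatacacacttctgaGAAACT
IFITM3, chr11:320861-321110 (- strand): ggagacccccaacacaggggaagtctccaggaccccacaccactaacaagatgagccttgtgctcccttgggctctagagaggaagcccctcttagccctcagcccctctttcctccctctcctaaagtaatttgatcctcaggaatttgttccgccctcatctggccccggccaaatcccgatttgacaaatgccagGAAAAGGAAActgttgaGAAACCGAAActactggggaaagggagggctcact
In BST2 the 2 overlapping matches began 130 and 124 bases before the start, and in ISG15 113 and 107 bases before it. In IFI6 the matches began 156, 115 and 93 bases upstream. In IFITM3 they began 52 and 35 bases upstream, and in IFITM1 40 and 6, so the last capitals of the IFITM1 stretch are the beginning of a match that runs past the start. A match is a description of the letters and not evidence of binding.

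The counts were given for Ensembl genes on GRCh37. In the deposited table BST2 (ENSG00000130303) spans chr19:17502082-17516457, IFI6 (ENSG00000126709) chr1:27992572-27998729, ISG15 (ENSG00000187608) chr1:948803-949920 and RSAD2 (ENSG00000134321) chr2:7005937-7038370. IFI44L (ENSG00000137959, chr1:79085607-79108484) lies just before IFI44 (ENSG00000137965, chr1:79115481-79129763). MX1 (ENSG00000157601) spans chr21:42792231-42831141 and XAF1 (ENSG00000132530) chr17:6658766-6678966. IFITM1 (ENSG00000185885, chr11:313506-315272) lies within the annotated span of IFITM2, with IFITM3 (ENSG00000142089, chr11:319669-321340) beside them. Of the 50-base windows of their GENCODE transcripts, 32.9% in IFITM1 and 14.4% in IFITM3 occur in another of these IFITM genes, so the split of reads between them is uncertain. IFI44 and IFI44L share no such window. RSAD2 overlaps CMPK2 (839 counts over the 12 libraries), and IFI6 overlaps an antisense gene with 65 counts. MX1, with 1317 counts, lies within the spans that the table gives to its relative MX2 (1454 counts) and to TMPRSS3 (33 counts), and holds an antisense gene with 4 counts. The use of strand in counting is not stated, so reads of overlapping genes may be mixed.

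Libraries held 18774905 to 24827396 counts. Their titles reuse 6 index sequences, once in samples 1 to 6 and once in samples 7 to 12. These are called index set 1 and index set 2 here, and each group has 1 library in each. What else differed between the sets is not given in the sources used here, nor is it said whether replicates were separate cultures. GFP_tracer and GFP_tracer_Dam of set 1 stood apart from the other 10 libraries on the first principal component (-78.2 and -87.0, others -16.2 to 41.0). Levels are given in CPM, counts scaled to the size of the library. VIM, a mesenchymal filament gene, was at 1743 to 4202 CPM and the epithelial markers EPCAM and CDH1 stayed under 1 CPM, but COL1A2 and COL3A1, genes of fibroblast collagens, were also under 1 CPM. The pan-leukocyte marker PTPRC had 5 counts over all 12 libraries. In these bulk samples fewer cells expressing a gene and less RNA per cell cannot be told apart.

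All 10 genes had a higher fitted level in index set 1 than in index set 2. IFI44L and XAF1 reached 10 counts in libraries of set 1 only, so they passed the filter on low counts through the set in which they are high, and their difference between the sets is a description here. Of the other 8 genes, 7 were called higher in set 1 (edgeR quasi-likelihood test with group and set, Benjamini-Hochberg adjusted p under 0.05 over all 17262 genes tested), and IFITM1 was not. Of all genes 15.6% were called higher in set 1 and 28.2% in either direction. The median log2 difference, set 1 minus set 2, was 1.66 over the 8 genes, 1.73 over all 10 and 0.01 over all genes tested.

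Tetherin and the IFITM genes act at membranes. BST2 in the GFP clone was at 4.66, 6.13 and 10.2 CPM in set 1 (uninduced, tracer, tracer with Dam-LaminB1) and at 2.63, 2.69 and 2.49 CPM in set 2. In the VP16 clone it was at 35.4, 46.4 and 51.8 CPM in set 1 and at 18.9, 22.2 and 21.4 CPM in set 2. Every library of set 1 was above its partner in set 2. Every VP16 library was above every GFP library, the direction for which BST2 was picked. The set difference of BST2 was 1.20 ± 0.15 log2 units (SE, edgeR adjusted p = 0.00132), and it ranged over the groups from 0.81 in uninduced GFP cells to 1.99 in GFP cells with tracer and Dam-LaminB1.

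IFITM3, whose product sits mainly in endosomes, varied least of the 10. It was at 163, 186 and 208 CPM in the GFP clone and at 157, 188 and 190 CPM in the VP16 clone in set 1. In set 2 it was at 163, 146 and 145 CPM in the GFP clone and at 133, 149 and 142 CPM in the VP16 clone. The uninduced GFP libraries of the sets were almost equal, and the other 5 groups were higher in set 1 by up to 0.52 log2 units (edgeR 0.31 ± 0.07, SE, adjusted p = 0.014). Without VP16_tracer_Dam of set 1 the adjusted p of IFITM3 was 0.055.

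IFITM1, which sits mainly at the cell surface, did not follow the others. In the GFP clone it was at 1.82, 2.35 and 4.15 CPM in set 1 and at 3.58, 3.06 and 3.33 CPM in set 2. In the VP16 clone it was at 4.40, 10.5 and 11.8 CPM in set 1 and at 3.55, 6.31 and 4.96 CPM in set 2. Set 1 was thus higher in 4 of 6 groups and lower in the uninduced and tracer groups of the GFP clone. The edgeR set difference was 0.28 ± 0.27 log2 units (SE, adjusted p = 0.466). IFITM2, the neighbour with which IFITM1 shares sequence, was at 47.4 to 65.3 CPM over the 12 libraries and had a set difference of 0.14 ± 0.06 (SE, edgeR adjusted p = 0.0994).

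MX1 and RSAD2 block viral replication inside the cell. MX1 was at 2.88, 5.73 and 7.32 CPM in the GFP clone of set 1 and at 2.83, 2.41 and 2.70 CPM in that of set 2. In the VP16 clone it was at 5.54, 11.6 and 12.6 CPM in set 1 and at 1.64, 1.47 and 1.99 CPM in set 2. The uninduced GFP libraries of the sets were level, and the gap was widest in VP16 cells with the tracer, at 2.91 log2 units. The edgeR set difference was 1.69 ± 0.36 (SE, adjusted p = 0.0114), and the adjusted p was 0.0837 without the 2 GFP libraries that stood apart.

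RSAD2 was at 5.59, 19.01 and 32.0 CPM in the GFP clone of set 1 and at 0.875, 0.649 and 0.674 CPM in that of set 2. In the VP16 clone it was at 31.5, 45.4 and 39.8 CPM in set 1 and at 6.83, 7.96 and 10.1 CPM in set 2. All 6 groups were higher in set 1. The gap in RSAD2 was 5.39 log2 units in GFP cells with tracer and Dam-LaminB1, the widest of any gene here in any group, and 1.97 in VP16 cells under the same treatment. The edgeR estimate was 3.03 ± 0.47 (SE, adjusted p = 0.00327) with all libraries and 2.25 ± 0.10 without the 2 GFP libraries that stood apart.

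ISG15 and IFI6 had more counts behind each value. ISG15 was at 36.9, 46.5 and 62.7 CPM in the GFP clone and at 109, 156 and 169 CPM in the VP16 clone in set 1. In set 2 it was at 15.0, 13.9 and 12.8 CPM in the GFP clone and at 40.0, 40.1 and 45.4 CPM in the VP16 clone. Its set difference ran over the groups from 1.30 to 2.29 log2 units (edgeR 1.77 ± 0.13, SE, adjusted p = 0.000206). In each set all VP16 libraries were above all GFP libraries for ISG15, but the VP16 libraries of set 2 overlapped the GFP libraries of set 1.

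IFI6 was at 13.3, 16.2 and 22.4 CPM in the GFP clone and at 58.1, 109 and 132 CPM in the VP16 clone in set 1. In set 2 it was at 4.66, 3.57 and 3.79 CPM in the GFP clone and at 8.65, 10.2 and 11.1 CPM in the VP16 clone. Every VP16 library of set 2 was below every GFP library of set 1. The set difference of IFI6 was 1.49 to 3.57 log2 units by group (edgeR 2.71 ± 0.27, SE, adjusted p = 0.000636).

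IFI44 was at 11.8, 10.6 and 13.4 CPM in the GFP clone of set 1 and at 3.14, 4.27 and 4.00 CPM in that of set 2. In the VP16 clone it was at 48.0, 66.5 and 68.9 CPM in set 1 and at 18.2, 19.2 and 21.9 CPM in set 2. The set difference of IFI44 ran from 1.30 to 1.88 log2 units by group (edgeR 1.64 ± 0.09, SE, adjusted p = 0.00012). As with BST2, every VP16 library was above every GFP library, and both genes were picked for that direction.

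IFI44L and XAF1 were near the limit of detection in set 2. IFI44L had 139 counts over the 6 libraries of set 1 and 7 over those of set 2, with none in the 3 GFP libraries of set 2. In set 1 IFI44L was at 0.133, 0.294 and 0.285 CPM in the GFP clone and at 1.09, 2.59 and 1.98 CPM in the VP16 clone, and in the VP16 clone of set 2 at 0.0455, 0.178 and 0.0885 CPM. Only the 3 VP16 libraries of set 1 reached 10 counts, and all other libraries lay below them. XAF1 had 233 counts in set 1 and 21 in set 2. XAF1 stood at 0.133, 0.833 and 1.50 CPM in the GFP clone and at 1.09, 3.39 and 3.47 CPM in the VP16 clone of set 1, and at no more than 0.364 CPM in any library of set 2. A floor of 3 counts corresponds to 0.119 to 0.139 CPM in these libraries, so most values of set 2 lie near or under it.

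**Figure D1:**
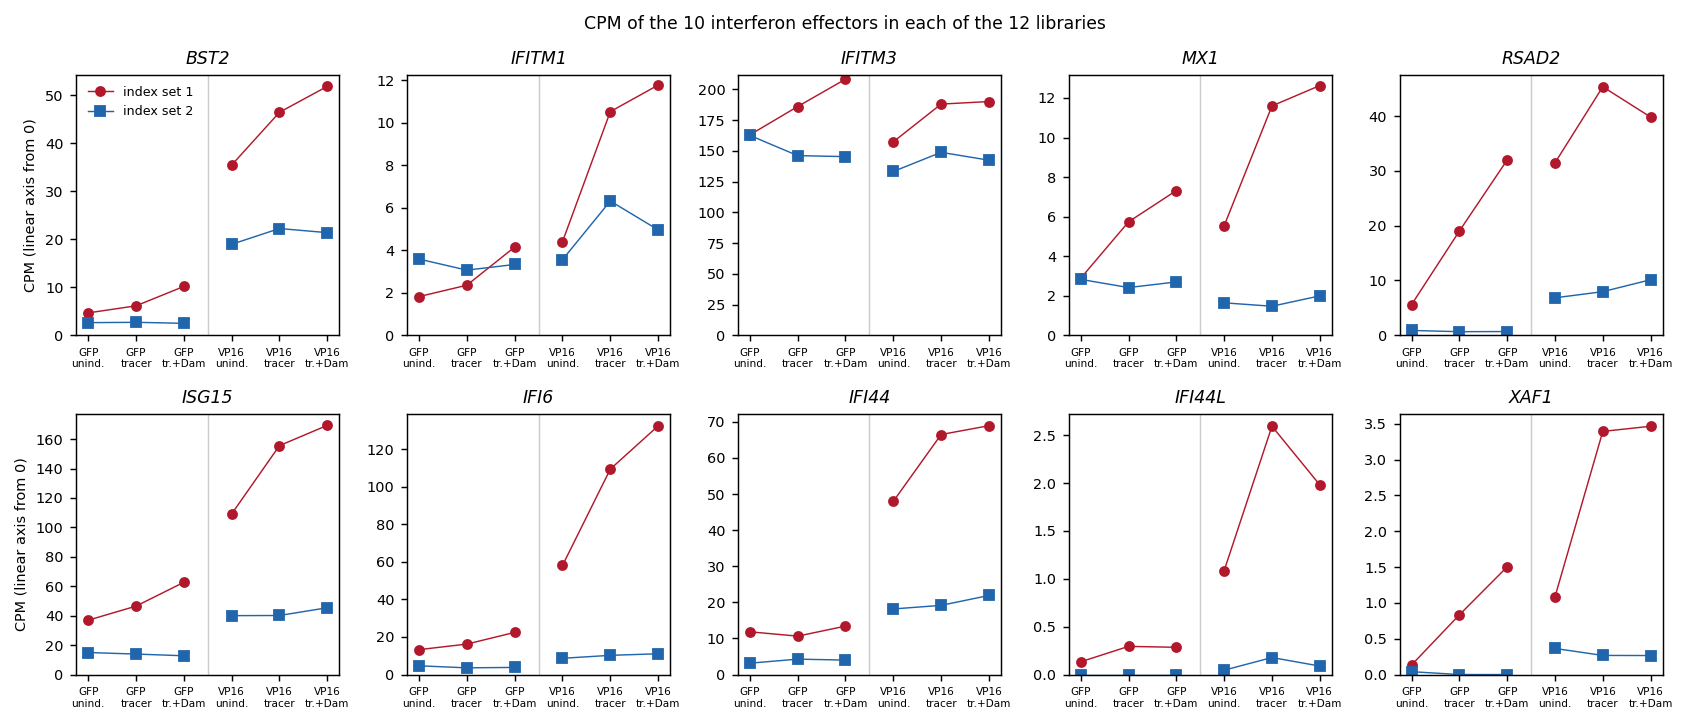
Level of each gene in CPM (linear vertical axes from 0, scaled per gene) in the 12 libraries, with the 3 groups of the GFP clone on the left and those of the VP16 clone on the right of each panel; circles are index set 1, squares index set 2, and each point is 1 library. Set 1 lies above set 2 in all 6 groups for 9 of the 10 genes. In uninduced GFP cells, however, IFITM3 and MX1 are almost level, and IFI44L and XAF1 have 3 counts or fewer. The lines join libraries of a set only to guide the eye.

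The difference between sets was present in each clone. With only the 6 VP16 libraries all 8 genes that did not pass the filter through set 1 alone were called higher in set 1, IFITM1 included (0.85 ± 0.13, SE, edgeR adjusted p = 3.92e-05), where 21.9% of 16139 genes were called higher. With only the 6 GFP libraries 4 of the 8 were called, IFI44, IFI6, ISG15 and RSAD2, where 3.79% of 16772 genes were called higher. BST2 was at 1.34 ± 0.27 (SE, edgeR adjusted p = 0.0571) and IFITM1 at -0.34 ± 0.29 (SE, edgeR adjusted p = 0.447) in that clone. Whether the set difference itself differed between the clones was tested as an interaction, and edgeR called no gene of the 17262 (3145 at an unadjusted p under 0.05, 4 of the 10 among them). These 4 were IFI6 (1.18), MX1 (1.56), RSAD2 (-2.23) and IFITM1 (1.10, VP16 minus GFP), with edgeR adjusted p of 0.246, 0.246, 0.246 and 0.252. Without the 2 GFP libraries that stood apart 6 of the 8 were called higher in set 1 in the fit over both clones, where 19.2% of 17558 genes were.

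**Figure D2:**
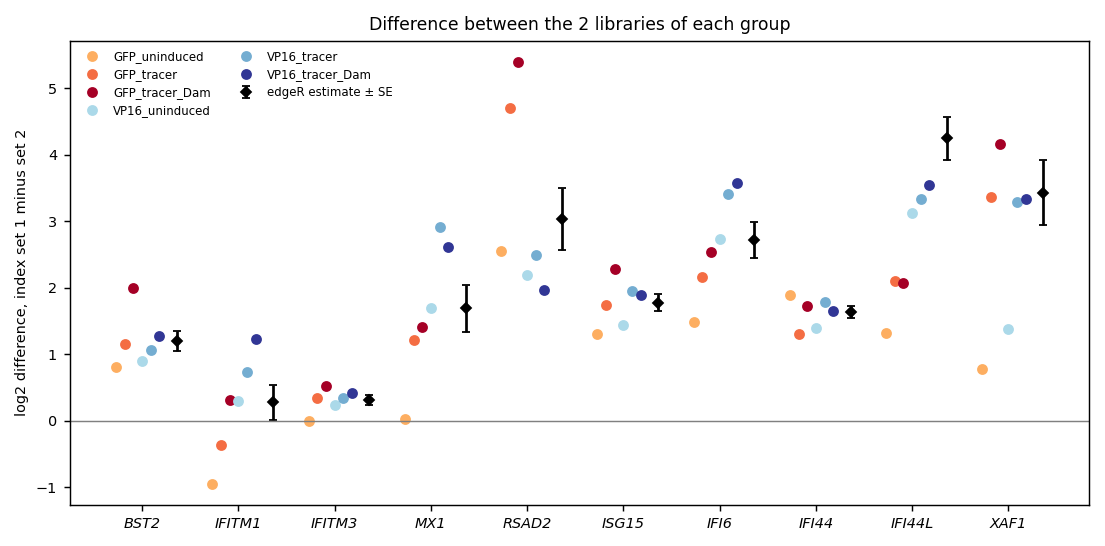
Log2 difference in expression, index set 1 minus set 2, for each gene; coloured circles are the 6 groups (1 library in each set) and black diamonds the edgeR estimate over all groups with its SE, which for IFI44L and XAF1 depends on the prior count. The circles lie above 0 for every gene and group except IFITM1 in the uninduced and tracer groups of the GFP clone. Those of IFITM3 and MX1 in uninduced GFP cells are only just above it.

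Other interferon-stimulated genes were also mostly higher in set 1, with a smaller median difference. Of 61 such genes, 57 had a positive set difference, 44 were called higher and 1 lower, and their median was 0.63 log2 units. Over all genes tested 51.3% had a positive difference, 15.6% were called higher and 12.6% lower. IFIT3, which binds viral RNA together with related proteins, was at 1.57 ± 0.07, LAMP3 at 2.01 ± 0.13, IFI27 at 3.79 ± 0.24 and MX2, the relative of MX1, at 2.61 ± 0.19 (SE, edgeR adjusted p = 4.48e-05, 0.000124, 0.000124 and 0.000206). All 6 genes of the ISG15 conjugation machinery were called higher, among them the conjugating enzyme UBE2L6 (0.78 ± 0.09), the ligases HERC5 (1.49 ± 0.18) and TRIM25 (0.37 ± 0.07), and HERC6 (1.02 ± 0.13, SE). The list also holds UBA7, the activating enzyme, and USP18, which removes ISG15 from its targets.

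**Figure D3:**
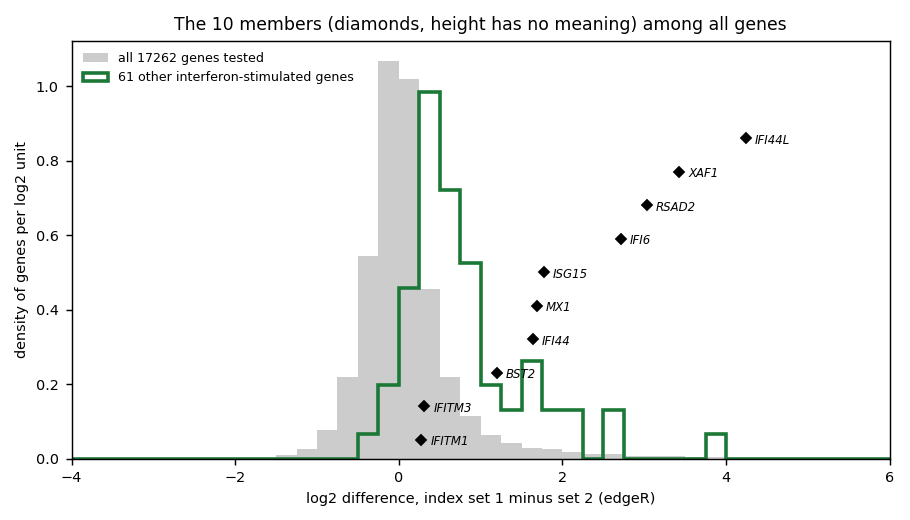
Distribution of the edgeR log2 difference, index set 1 minus set 2 (horizontal axis), over all 17262 genes tested (grey bars, density per log2 unit) and over 61 other interferon-stimulated genes (green outline); diamonds mark the 10 genes at their own value and their height has no meaning. The grey bars centre on 0.01, the outline on 0.63 and the diamonds on 1.73 (medians).

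The upstream parts of the pathway were compared between the sets in the same fit, where 15.6% of all genes were called higher and 12.6% lower. Among the receptor, kinase and ISGF3 genes, STAT2 (0.47 ± 0.07) and the receptor chain IL10RB (0.36 ± 0.07) were called higher in set 1, and the kinase JAK2 (-0.32 ± 0.07, SE) was called lower. The receptor chain IFNAR1 was at 84.6 CPM on average in set 1 and 85.2 CPM in set 2. Of 11 tested sensors of nucleic acid and their adaptors, 6 were called higher and 1 lower, with TLR3 at 1.41 ± 0.18 and the cytoplasmic sensor IFIH1 at 0.98 ± 0.18 (SE). Few reads came from the ligands. IFNB1 had 18 counts over all 12 libraries and at most 7 in 1 library, and 8 other interferon genes had 9 counts or fewer. IFNE had 331 counts and was at -0.55 ± 0.28 (SE, edgeR adjusted p = 0.171).

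Markers of other cell types were read beside this in the same fit, where 15.6% of all genes were called higher and 12.6% lower. Of 9 blood markers counted, only CD68 and IL3RA passed the filter, and both were called higher in set 1. The summed blood marker level was 186 to 341 CPM in set 1 and 119 to 188 CPM in set 2, of which CD68, a lysosomal protein that is also made outside blood cells, was 117 to 337 CPM. The defining marker PTPRC was at or near 0 in every library. Of 8 epithelial markers, ESRP1 and CLDN4 passed the filter. ESRP1, a splicing factor of epithelial cells, averaged 3.08 CPM in set 1 and 0.189 CPM in set 2 and reached 10 counts only in the 2 GFP libraries that stood apart, at up to 10.7 CPM. The summed epithelial level was 3.20 to 15.8 CPM in set 1 and 3.32 to 4.55 CPM in set 2. Of 10 fibroblast and mesenchymal markers tested, MMP14 (0.38 ± 0.10) and SPARC (0.20 ± 0.05) were called higher in set 1 and FN1, fibronectin, lower (-0.97 ± 0.19, SE). These markers were thus called at near the share of all genes. Their summed level was 6437 to 9853 CPM in set 1 and 7986 to 10278 CPM in set 2. The part of these genes in the set difference was not tested.

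BST2 and IFI44 were picked for being higher in the VP16 clone, so their values in every comparison of the clones are a description. The uninduced clones are given first. BST2 was at 27.2 ± 11.7 CPM in VP16 cells and 3.64 ± 1.43 CPM in GFP cells, and IFI44 at 33.1 ± 21.1 and 7.49 ± 6.15 CPM (SD, n = 2). Within each set the log2 difference in BST2 was 2.90 and 2.81, and that in IFI44 2.01 and 2.50 (sets 1 and 2). In tracer cells, which fall under the same choice of genes, the difference was 2.90 and 3.01 for BST2 and 2.63 and 2.14 for IFI44. With Dam-LaminB1 it was 2.34 and 3.06 for BST2 and 2.35 and 2.43 for IFI44.

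None of the other 8 genes was called between the uninduced clones by edgeR or by DESeq2. Of all genes edgeR called 0.278% (0.0753% higher and 0.203% lower in VP16 cells), and DESeq2 called 297 of 17262. None of the 8 had an unadjusted edgeR p under 0.05. ISG15 was at 1.52 ± 1.05, RSAD2 at 2.57 ± 1.89 and IFI6 at 1.90 ± 1.56 log2 units (SE, edgeR adjusted p = 0.935, 0.954 and 0.987). IFI44L reached 10 counts only in VP16 libraries, so it passed the filter through the clone in which it is high and is left out of the counts that follow. With the sets as a replicate block, 1 of the other 7 was called higher in the VP16 clone, ISG15 at 1.49 ± 0.22 (SE, edgeR adjusted p = 0.018), where 0.475% of all genes were called higher and 1.42% lower. Leaving out any of the 4 uninduced libraries took this call away. Without the 2 GFP libraries that stood apart XAF1 also reached 10 counts only in VP16 libraries, and the blocked fit called 2 of the remaining 6, ISG15 and RSAD2. In that fit 9.02% of 17558 genes were called higher and 12% lower.

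Within a set the genes differed in how they followed the clone. ISG15 was higher in VP16 cells by 1.41 to 1.82 log2 units in all 6 comparisons within a set. RSAD2 was higher by 2.84, 3.45 and 3.74 in set 2 (uninduced, tracer, tracer with Dam-LaminB1), and by 2.48, 1.25 and 0.32 in set 1, where the GFP libraries with the tracer stood apart. MX1 was higher in VP16 cells in set 1 by 0.78 to 1.01 and lower in set 2, at -0.75 to -0.42. IFITM3 lay between -0.29 and 0.03 in all 6 comparisons. The other 61 interferon-stimulated genes had a median clone difference of 0.18 in set 1 and -0.06 in set 2 without induction. In the fit over 12 libraries with the replicate block their median was 0.07, and that of all genes tested 0.02. The median was 1.49 in that fit over 7 of the 10 genes, without BST2 and IFI44, which were picked on this contrast, and without IFI44L.

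**Figure D4:**
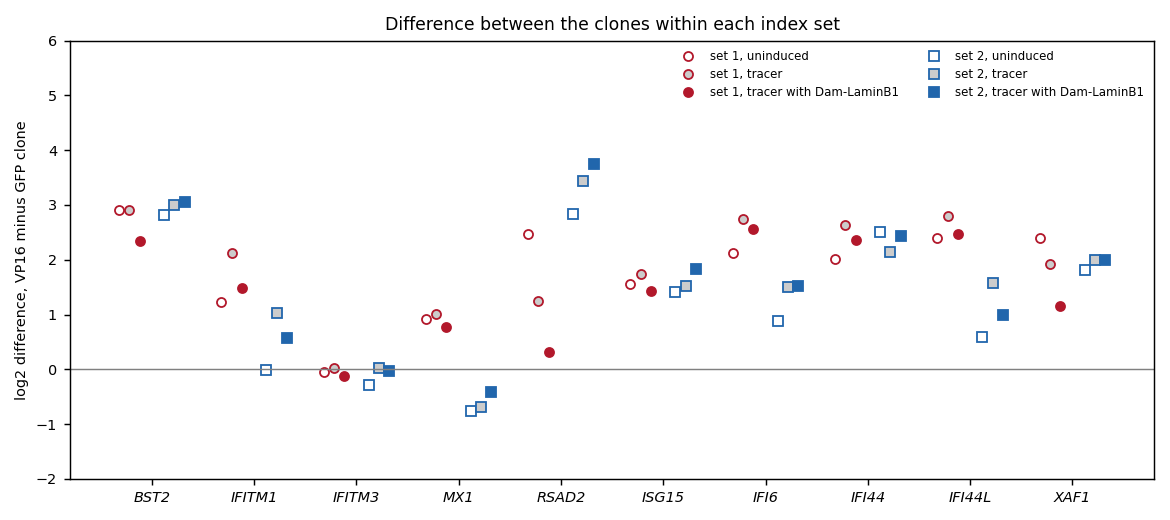
Log2 difference in expression, VP16 clone minus GFP clone, within each index set and treatment (vertical axis); circles are set 1 and squares set 2, open for uninduced, grey for tracer and filled for tracer with Dam-LaminB1, 1 library per clone in each. BST2 and IFI44, picked for being higher in the VP16 clone, lie between 2.01 and 3.06 throughout. IFITM3 lies near 0 and MX1 changes sign between the sets.

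Turning on the tracer, with or without Dam-LaminB1, gave no called change in any of the 10 genes in the fit over 12 libraries, in either clone, with or without the replicate block. No gene of the 17262 was called in these comparisons (0% of genes), by edgeR or by DESeq2. At an unadjusted edgeR p under 0.05 there were 72 genes in the fit without the block for the tracer in the VP16 clone and 189 for the tracer with Dam-LaminB1 against uninduced. In the GFP clone there were 125 and 228. The 10 genes had log2 changes of 0.19 to 1.38 with tracer and Dam-LaminB1 in the VP16 clone, with SEs from 0.23 to 1.77. These SEs hold the gap between the sets.

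Read within a set, most of the genes had higher values in the VP16 clone once the tracer was on. From uninduced to tracer with Dam-LaminB1, all 10 genes were higher in set 1 (median 0.73 log2 units) and 9 in set 2 (median 0.27), where all genes tested had medians of 0.00 in each set. The log2 change was 1.40 and 0.47 for IFITM1, 1.19 and 0.35 for IFI6, 1.18 and 0.27 for MX1, and 0.55 and 0.17 for BST2 (sets 1 and 2). XAF1 was the exception, at 1.60 in set 1 and -0.35 in set 2, where it had 8 or fewer counts per library. With the tracer alone 10 genes were positive in set 1 (median 0.72) and 8 in set 2 (median 0.19). Both counts of set 2 include IFI44L, at 1, 4 and 2 counts there (uninduced, tracer, tracer with Dam-LaminB1). The count for the tracer alone also includes ISG15, at a log2 change of 0.004.

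A fit of the 6 VP16 libraries alone, with the set as a replicate block, called 7 of the 10 genes higher with tracer and Dam-LaminB1, where 5.58% of 16139 genes were called higher. These were IFITM1 (1.04 ± 0.18), MX1 (0.98 ± 0.19), IFI44 (0.44 ± 0.08), BST2 (0.40 ± 0.08), RSAD2 (0.42 ± 0.10), IFITM3 (0.19 ± 0.05) and XAF1 (1.31 ± 0.34, SE), with edgeR adjusted p from 0.00125 to 0.0189. All but XAF1 were higher in both sets. With 6 libraries the fit leaves fewer residual degrees of freedom than those over 12 libraries. Its p-values therefore lean more on the spread pooled over genes. For the tracer alone it called 3 (0.793% of genes called higher): IFITM1 at 1.07 ± 0.18, RSAD2 at 0.46 ± 0.10 and IFITM3 at 0.22 ± 0.05 (SE, edgeR adjusted p = 0.00599, 0.0326 and 0.0294). For Dam-LaminB1 added to the tracer, edgeR called none of the 10 in this fit, and none had an unadjusted p under 0.05, where 0.0806% of genes were called in either direction.

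These calls depended on single libraries. Each fit without 1 library held 5 libraries with 1 residual degree of freedom, and the lone library of the shortened group is assumed to vary like the others. Without VP16_uninduced of set 1 neither comparison called any of the 10 genes, although 9 were still positive with tracer and Dam-LaminB1 and 8 with the tracer alone (1.11% and 0.083% of all genes called higher). Without VP16_tracer_Dam of set 1, IFI44 and RSAD2 were called for the tracer with Dam-LaminB1 (1.52% of all genes), and without VP16_tracer of set 1, IFITM1 was called for the tracer (0.321%). With tracer and Dam-LaminB1, 9 of the 10 were called without VP16_uninduced of set 2 and 9 without VP16_tracer_Dam of set 2, where the share of all genes called higher was 6.64% and 9.8%. For the tracer, 10 were called without VP16_uninduced of set 2 (2.49% of all genes) and 7 without VP16_tracer of set 2 (0.737%). In the same fit of all 6 libraries, other interferon-stimulated genes were called higher in 28 of 61 cases with tracer and Dam-LaminB1 and in 7 with the tracer alone, with none lower. OAS1, an enzyme that activates RNase L, was at 1.52 ± 0.12 and IFIH1 at 0.58 ± 0.09 (SE) with tracer and Dam-LaminB1.

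In the GFP clone the sets differed in sign. From uninduced to tracer with Dam-LaminB1 all 10 genes were higher in set 1 (median 0.94 log2 units), led by XAF1 (2.84), RSAD2 (2.50) and MX1 (1.32). In set 2 only IFI44 was higher (0.34), IFI44L was at 0 counts in every GFP library, and the median was -0.13. The 2 induced libraries of set 1 are those that stood apart from the rest over all genes, and what part they have in these values was not tested. The fit of the GFP clone alone with the block called none of the 9 genes tested, and no gene among 16772 (229 at an unadjusted edgeR p under 0.05 for the tracer and 337 for the tracer with Dam-LaminB1). The difference in change between the clones was called for none of the 10 genes and for no gene in the table, with 94 genes at an unadjusted edgeR p under 0.05 for the tracer and 104 for the tracer with Dam-LaminB1.

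**Figure D5:**
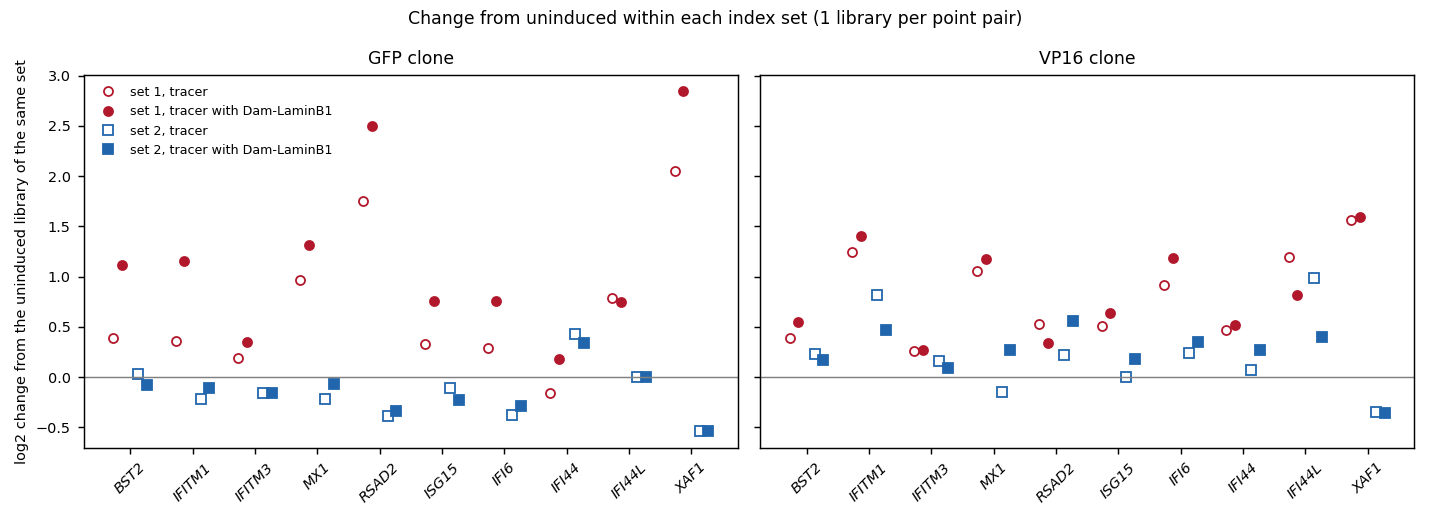
Log2 change of each gene from the uninduced library of the same index set and clone (vertical axis), in the GFP clone (left) and the VP16 clone (right); circles are set 1, squares set 2, open for tracer and filled for tracer with Dam-LaminB1, 1 library per point. In set 2 most GFP points lie at or below 0 and most VP16 points slightly above it, while nearly all points of set 1 lie above 0.

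Ordered by group means, BST2, IFI6 and ISG15 had the same order of the 6 groups: uninduced, tracer, and tracer with Dam-LaminB1 in the GFP clone, followed by the same 3 in the VP16 clone. The libraries of set 1 held this order for each of these genes, but those of set 2 did not. In the GFP clone of set 2 tracer with Dam-LaminB1 was lowest for BST2 and ISG15, and tracer was lowest for IFI6. Neighbouring groups in the orders of the 10 genes mostly overlapped, and how often groups overlap over all genes was not computed. Step by step from uninduced to tracer to tracer with Dam-LaminB1, 8 of the 10 genes were higher at each step in set 1 in the GFP clone, where 27.2% of all genes tested were. The VP16 clone of set 1 also had 8, against 23.6% of all genes. In set 2 none were in the GFP clone, against 19.8% of all genes, and 4 were in the VP16 clone, IFI44, IFI6, ISG15 and RSAD2, against 19.1%.

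The 8 genes with a mean of at least 1 CPM were compared in their profiles over the 12 libraries, which share clone, set and depth. Pearson's r of log2 CPM between pairs ranged from 0.21 to 0.98 (median 0.71 over 28 pairs). IFI6 and ISG15 lay nearest to the mean profile of the others (r = 0.98 and 0.97), and IFITM3 (0.55) and IFITM1 (0.67) farthest. Of 13748 other genes, the 10 most like the mean profile included OAS2 (r = 0.99), MFI2 (0.99), CD68 (0.99), MX2 (0.98), ALDH4A1 (0.98), IFI27 (0.97), IFIT3 (0.97), EDEM2 (0.97) and SCAMP3 (0.97). OAS2, MX2, IFI27 and IFIT3 are on the lists of interferon genes. Only 2 of the 10 were also among the nearest 10 by Spearman's rho, and 4 after the mean of each set was removed.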

How the data were processed

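RNA was measured in 12 libraries, 2 for each of 6 groups taken from the labels. Cells were lysed in Trizol for total RNA, and an Illumina TruSeq RNA kit was used for the libraries, per the labels' protocols. TopHat 1.4.0, Bowtie 0.12.7, HTSeq and the build GRCh37 are named in the submitters' processing notes. No version of HTSeq, overlap mode or strand setting is given in the sources used here. Deposited by the authors were read counts per gene as whole numbers, not normalized, for 36502 genes.

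The 10 genes and the other lists were chosen with earlier results of these data known. After filterByExpr (17262 genes) and TMM scaling, all genes were fitted in edgeR 4.0.16 (R 4.3.3) by quasi-likelihood, with a coefficient for each group and 6 residual degrees of freedom. P-values were adjusted by Benjamini-Hochberg over all genes tested, with a threshold of 0.05. The SE of a log2 change was taken as its size over the root of its F statistic. CPM included the TMM factor, and a prior count of 2 was added for log2 CPM. P-values measure the spread between these libraries only. The script was tested on simulated counts.

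Deviations from group means correlated positively within an index set for all 15 pairs of groups (0.41 to 0.86), and the sets were therefore taken to pair the libraries. The alternative fit with the set as a replicate block has 5 residual degrees of freedom. A fit of 1 clone alone with the block holds 6 libraries and leaves fewer, so its p-values lean more on the spread pooled over genes. Other alternatives were RLE factors, DESeq2 1.42.0, other filters on low counts, 1 clone alone with the block, and leaving out each library. Chosen after seeing the data were the fits without 2 GFP libraries, the test of set by clone, and the leave-one-out fits of the VP16 clone alone. Named from each other list were up to 4 genes by smallest p, and from the profiles the 10 with the highest Pearson's r. IFNAR1, the ligands and the markers given by level were chosen after their values were seen. Values of some listed genes are not reported here.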

Additional observations from a re-analysis of the deposited data

How the results depend on the processing

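With IFI44L and XAF1 included, the count of 9 genes higher in index set 1 was 8 to 9 under every alternative that kept both clones, 10 with the VP16 clone alone and 5 with the GFP clone alone, where IFITM1 was at -0.34. Counts of 0 held with RLE factors, DESeq2 and other filters for every treatment and for the uninduced clones. With the sets paired as a replicate block, the uninduced clones gave 2 calls, and 4 without the 2 GFP libraries that stood apart (1 and 2 without genes that reached 10 counts only in VP16 libraries), with MX1 at -0.024 under the block. The VP16 clone alone, paired, gave 3 calls for the tracer and 7 for the tracer with Dam-LaminB1; the paired fit over 12 libraries gave 0 for each. Leaving out 1 library at a time gave 0 to 10 and 0 to 9 calls. Over these fits, paired and not, log2 changes for the tracer in the VP16 clone ran from -0.30 to 0.85 (BST2), -0.79 to 1.23 (IFI44), -1.61 to 4.76 (IFI44L), -1.71 to 2.78 (IFI6), -0.90 to 1.29 (ISG15), -1.28 to 1.99 (MX1), -1.27 to 1.96 (RSAD2) and -1.41 to 2.30 (XAF1). For the tracer with Dam-LaminB1 they ran from -0.34 to 0.95 (BST2), -0.59 to 1.32 (IFI44), -2.56 to 4.35 (IFI44L), -1.58 to 3.05 (IFI6), -0.71 to 1.42 (ISG15), -0.83 to 2.15 (MX1), -0.91 to 1.87 (RSAD2), -1.41 to 2.34 (XAF1) and -0.024 to 0.37 (IFITM3). Between the uninduced clones they ran from -0.44 to 6.63 (IFI44L), -0.044 to 2.81 (IFI6), -0.94 to 1.03 (MX1) and -0.11 to 1.35 (IFITM1). Leaving out 1 library without pairing unbalances the sets, which by construction moves these values by the set difference. Depth limits IFI44L and XAF1 most, with 7 and 21 counts over the 6 libraries of set 2.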

Other observations

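Taken 1 at a time, the 8 genes with a mean of at least 1 CPM had these nearest profiles over the 12 libraries by Pearson's r of log2 CPM, among all genes of that level. IFI6 was nearest to OAS2 (0.99), ISG15 to CD68 (0.99), IFI44 to SRGN (0.99), RSAD2 to PRR13 (0.98), BST2 to GLP2R (0.98), IFITM3 to IFI35 (0.97), MX1 to FAM131C (0.96) and IFITM1 to NR4A2 (0.93). OAS2 and IFI35 are interferon-stimulated genes. None of the 8 had another of the 8 as its nearest gene. These are descriptions over libraries that share clone and set.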
